A study of Mus musculus with 30 samples.

Results

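Neutrophil-rich barcodes were followed across 8 organs of mice with collagen-induced arthritis (CIA) and of healthy mice. A barcode column was taken as neutrophil-rich when S100a8 plus S100a9 made up at least 5% of its units, and such columns are called members here. There were 656 members among 8282 columns (7.92%). They came from 13 of 30 libraries, and 9 libraries held at least 10 members, 630 in all. Because S100a8 and S100a9 chose the members, their levels and the numbers of members are given as a description without a test.

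The libraries were made by Seq-Well, in which single cells and barcoded beads share small wells, from young adult male DBA1/J mice. The 4 CIA mice (S1, S2, S6 and S7) had received 100 µg of bovine collagen II in complete Freund's adjuvant and a booster in incomplete adjuvant on day 20, while H3, H4, H6 and H7 were healthy controls given buffered saline by the study's methods. The arthritis score was 8 in S1 and S2, 3 to 4 in S6, 3 in S7 and 0 in the healthy mice. The adjuvant was given to the CIA mice and not to the healthy mice, so arthritis and adjuvant cannot be told apart. Blood had been reduced to mononuclear cells on a density gradient and red cells had been lysed, whereas the whole knee joint was minced and digested, so the blood members do not stand for all circulating neutrophils. Organs were stored frozen before the cells were loaded. Library titles end in CIA or 2CIA whatever the state of the mouse, and its meaning is not given there. Joint and muscle had 1 mouse per state, spleen had at least 10 members in S1 alone, and blood had at least 10 in S2, S7 and H7.

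Neutrophils are short-lived phagocytes made in the bone marrow. Promyelocytes make the proteases and peroxidase of primary granules, myelocytes and metamyelocytes make the lactoferrin and antimicrobial peptides of secondary granules, and mature cells have shut down much of this programme and carry receptors for chemokines. S100a8 and S100a9 encode the subunits of calprotectin, which binds calcium and zinc and is among the most abundant neutrophil proteins. In arthritis, neutrophils enter the synovial fluid in large numbers.

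The promoters of both genes of the rule and of the 2 secondary granule genes with the highest level, Camp (cathelicidin) and Ngp (neutrophilic granule protein), are shown because the first pair defines the members and the second stood higher in each joint library than in each blood library, summed over members. The sequences are from RefSeq on GRCm38.p6 and run 5′ to 3′ from 250 bases before the start of the gene to 50 bases into it. Capitals mark matches on either strand to TTGCNNAA, a form of the motif of C/EBP factors, or to AGGAAGT, a core of the PU.1 motif. No match to the one overlapped a match to the other.
S100a8, chr3:90668821-90669120, plus strand: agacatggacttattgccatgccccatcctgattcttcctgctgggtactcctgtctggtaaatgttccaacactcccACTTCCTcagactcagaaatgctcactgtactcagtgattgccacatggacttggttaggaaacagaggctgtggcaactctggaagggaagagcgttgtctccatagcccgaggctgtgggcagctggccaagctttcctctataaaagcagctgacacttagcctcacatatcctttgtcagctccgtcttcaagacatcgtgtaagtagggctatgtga
S100a9, chr3:90695672-90695971, minus strand: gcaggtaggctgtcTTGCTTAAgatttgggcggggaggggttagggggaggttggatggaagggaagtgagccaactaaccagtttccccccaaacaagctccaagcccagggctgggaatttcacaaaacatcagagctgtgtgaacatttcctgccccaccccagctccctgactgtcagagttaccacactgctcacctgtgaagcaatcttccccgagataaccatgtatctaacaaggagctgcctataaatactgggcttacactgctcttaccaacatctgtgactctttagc
Camp, chr9:109849407-109849706, minus strand: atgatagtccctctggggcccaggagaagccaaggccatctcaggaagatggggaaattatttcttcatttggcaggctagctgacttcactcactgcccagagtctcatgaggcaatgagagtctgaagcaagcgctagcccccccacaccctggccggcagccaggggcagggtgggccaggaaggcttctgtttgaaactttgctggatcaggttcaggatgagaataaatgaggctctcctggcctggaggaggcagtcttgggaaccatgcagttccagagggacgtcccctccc
Ngp, chr9:110419558-110419857, plus strand: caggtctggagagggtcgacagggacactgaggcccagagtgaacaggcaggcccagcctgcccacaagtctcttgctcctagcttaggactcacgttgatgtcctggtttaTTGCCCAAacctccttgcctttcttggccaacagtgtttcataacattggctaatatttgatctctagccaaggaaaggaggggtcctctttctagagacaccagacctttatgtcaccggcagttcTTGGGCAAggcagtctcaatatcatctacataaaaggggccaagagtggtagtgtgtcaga
S100a8 had 1 match to the PU.1 form, S100a9 had 1 match to the C/EBP form, Ngp had 2 matches to the C/EBP form, and the window of Camp held neither. Among 27025 RefSeq promoters of this length, 10.8% held the C/EBP form and 9.57% the PU.1 form. Of the 11 secondary granule genes with a promoter in the table, 5 held the C/EBP form, against 2 of 14 late genes. The PU.1 form was held by 3 of the 11 and 2 of the 14. Of 15 interferon-stimulated genes, 1 held the C/EBP form and 3 the PU.1 form. These counts were not tested. S100a8 and S100a9 lie side by side on chromosome 3, at 90669071 to 90670034 and 90692630 to 90695721. Camp (109847377 to 109849456), Ngp (110419808 to 110423012) and Ltf (111019292 to 111042766) lie near each other on chromosome 9.

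The deposited values are a smoothed signal: each column holds whole-number sums over a barcode and its nearest neighbours, so several columns of a library can share 1 profile. The 656 members held 254 distinct profiles, and the 8282 columns held 4590. Column totals ran from 4373 to 36435 units, with a median of 9362 in members and 7508 in the other columns. Levels are given as UPM, the units of a gene per 1000000 units summed over the members of a library. Smoothing removes independence between columns, so no counting interval is given, and a gene at 0 is only listed at 0. In blood S7, blood H7, joint H3, the smaller joint S1 library and muscle H6, between 6.18% and 21.3% of the genes above 0 never exceeded 1 unit in a column, against 37.1% to 56.2% in the other 4 libraries, so a 0 there may not mean the same, and the cause was not tested. The 13 barcodes that occurred in more than 1 library included 0 members, and 0 profiles were shared between libraries.

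Members were most frequent in the CIA joint. The larger S1 joint library (suffix 2CIA) held 265 members of 606 columns (43.7%), the smaller one (suffix CIA) 11 of 70 (15.7%), and the joint of the healthy mouse H3 30 of 193 (15.5%). Thus the smaller S1 library and the healthy joint held nearly the same share. The 11 members of the smaller S1 library shared 1 profile, so its levels below rest on that profile.
In blood, 23.1% of the columns of S2 and 20.6% of those of S7 were members, whereas S6 had 0 of 62. Among healthy mice, H7 had 15 of 934 blood columns (1.61%), H4 had 5 of 357 in 1 library and 0 of 95 in the other, and H3 and H6 had 0 of 27 and 0 of 306. The range of the CIA mice, from 0 to 23.1%, therefore overlapped that of the healthy mice.
Spleen held 141 of 532 columns (26.5%) in S1 and 9 of 167 (5.39%) in H6. Muscle held 12 of 54 (22.2%) in S1 and 96 of 421 (22.8%) in H6. Lung and lymph node of S1 held 7 of 182 and 5 of 454. The skin and thymus libraries, the healthy lung and the other 8 lymph node libraries held 0. A smaller share of columns and a smaller amount of S100a8 and S100a9 RNA per cell cannot be told apart where the rule finds 0.

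**Figure D1:**
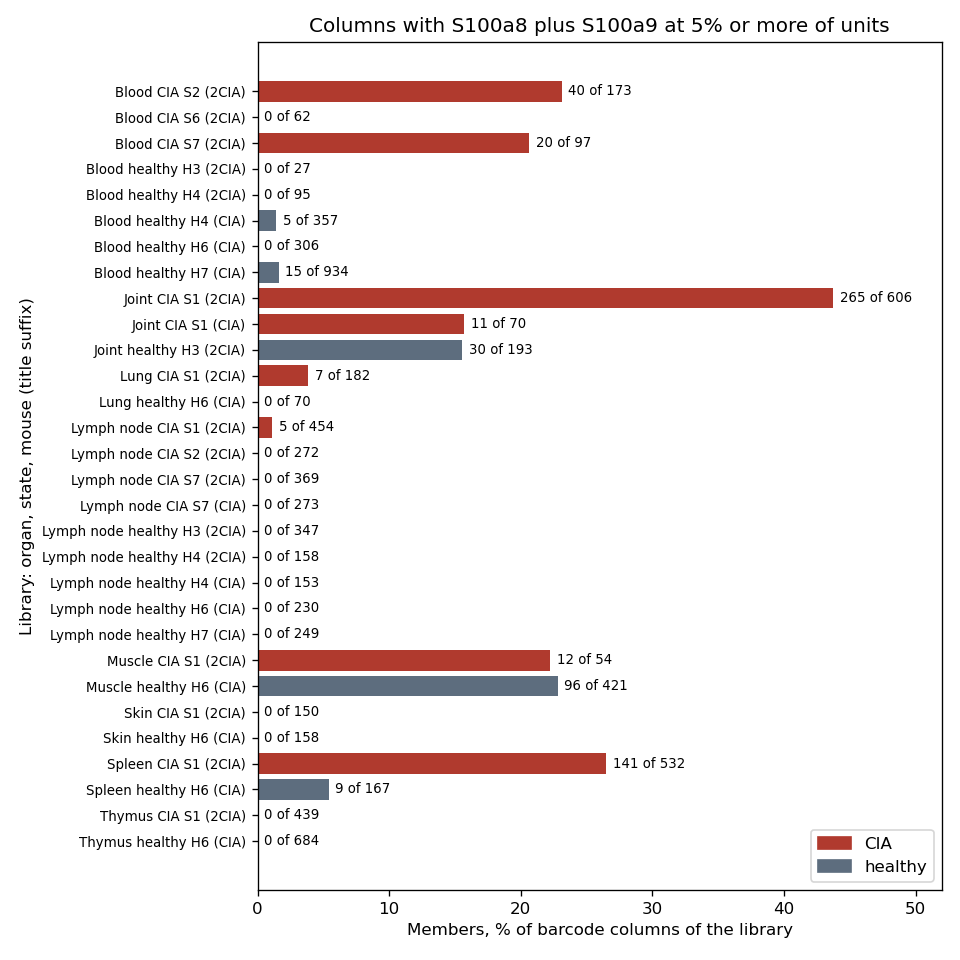
Share of the barcode columns of each library that were members, in percent, for 30 libraries named by organ, state, mouse and title suffix, with members of columns written beside each bar. The larger S1 joint library stands highest at 43.7%, and 17 libraries hold 0 members.

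The share of S100a8 plus S100a9 among the units of a member had a median of 29.8% and reached 49.4%. It was between 5% and 10% in 135 members and at least 20% in 398. The lowest member stood at 5.02% and the highest column left out at 4.87%. A further 147 columns lay between 2.5% and 5%. No gap in the values separated members from other columns.
Summed over members, S100a8 stood above S100a9 in all 9 libraries, from 1.78 times in joint H3 to 4.31 times in muscle S1. Together they made up 31.4% and 31.8% of the member units in the joint libraries of S1, 30.1% in spleen S1, 27.6% in blood S7, 26.4% in muscle H6, 25.4% in joint H3 and 20.3% in blood S2. Blood H7 and muscle S1 lay far lower, at 8.22% and 6.61%.

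Genes that mark neutrophils and played no part in the rule were present in most of these libraries. The 14 defining genes, among them Ly6g, Csf3r, Cxcr2, Retnlg, Mmp8 and Camp, summed to between 4971 and 66962 UPM in members and to between 122 and 2299 UPM in the other columns of the same libraries. Retnlg, which encodes a resistin-like protein secreted by neutrophils, was higher in members than in other columns of 9 of 9 libraries. So were Ngp, Wfdc21 (a secreted protease inhibitor domain protein) and Lcn2, the iron-carrier-binding lipocalin of secondary granules. Ltf, which encodes lactoferrin, had the largest median difference in log2 level between members and other columns, 5.66, followed by Ngp at 5.45 and Camp at 5.31. Ltf was higher in 7 libraries and listed at 0 in members and other columns of blood S7 and H7. Camp was higher in 8 and stood at 0 in blood S7 members against 88.4 UPM in the other columns. Pglyrp1, C5ar1, Cd177, Trem3 and Retnlg had median differences from 3.64 to 3.91. These genes belong to the columns that the rule selected and were not tested.

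In muscle S1 the members held genes of several cell types. Its 12 members came from 3 profiles. Their endothelial markers summed to 11446 UPM, above the 1266 UPM of the other columns of that library, with Fabp4, a fatty acid binding protein of capillary endothelium and fat, at 9707 UPM. Their fibroblast markers summed to 7823 UPM. The 5 genes with the largest ratio of muscle S1 to muscle H6 were Rbp7, Rgs5, Sparcl1, Tagln and Ptprb, all listed at 0 in H6 and at 788 to 4430 UPM in S1. They are known from endothelium, pericytes and smooth muscle. The 5 with the smallest ratio were Chil3, Fcnb, Igkc, Plek and Pglyrp1, all listed at 0 in S1 and at 897 to 1323 UPM in H6. Of the neutrophil genes, Retnlg stood at 106 UPM, while Cxcr2, Csf3r and Il1b were listed at 0. Others were present, with Camp at 2883 UPM against 62.7 UPM in the other columns of that library, and Ngp at 1153 and Ltf at 1144 UPM against 0. The 14 defining genes summed to 5632 UPM in these members and 122 UPM in the other columns. With neutrophil, endothelial and fibroblast genes side by side, this set is called the muscle S1 members, with no cell type.
Other members also carried RNA of other cells. Haemoglobin genes made up 31.7% of member units in blood S2, 12.9% in blood H7, 6.37% in spleen S1, 4.89% in blood S7, and 0.960% to 4.47% in the joint and muscle libraries. B cell markers stood at 6337 UPM in blood H7 and 4751 UPM in spleen S1 and at 2030 UPM or less elsewhere. Fibroblast markers stood at 2316 to 4405 UPM in the joint libraries and were listed at 0 in blood and spleen. Of the 10 markers of eosinophils, basophils and mast cells, 8, Epx and Prg2 among them, were listed at 0 in the members of all 9 libraries, and the other 2 summed to at most 106 UPM. The 12 markers of monocytes and macrophages, some of which neutrophils share, summed to 2355 to 13118 UPM in members and were above the level of the other columns in 7 of 9 libraries. Most of this was Lyz2 (lysozyme), at 1480 to 12526 UPM. Ly6c2, a surface antigen of monocytes, stood at 45.5 to 1245 UPM and the protease gene Ctss at 0 to 607 UPM. Csf1r, the receptor of macrophage colony-stimulating factor, was listed at 0 in 7 of 9 libraries and reached 211 UPM in muscle S1, and Adgre1, which encodes the macrophage antigen F4/80, was listed at 0 in all 9. The part these cells have in the results below was not tested.

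The members of blood and joint lay apart in the level of the granule programme. Secondary granule genes (13 genes) stood at 50436 to 72339 UPM in the 3 joint libraries, 71026 UPM in muscle H6 and 45362 UPM in spleen S1. In blood they stood at 26931 UPM in S2, 7646 UPM in S7 and 2520 UPM in H7. Late genes (16 genes of mature neutrophils, such as Retnlg, Csf3r, Cxcr2 and Il1b) stood at 16475 to 42501 UPM in blood, 9340 to 16416 UPM in joint, 9018 UPM in muscle H6 and 6029 UPM in spleen S1.
The joint and blood libraries did not overlap for either list, although the late genes of the larger S1 joint library (16416 UPM) came very near those of blood H7 (16475 UPM).
The ratio of secondary granule to late genes was 1.21 in blood S2, 0.180 in blood S7 and 0.153 in blood H7. It was 3.15 and 5.40 in the S1 joint libraries, 6.11 in joint H3, 7.52 in spleen S1 and 7.88 in muscle H6. The muscle S1 members had a ratio of 3.65, with secondary granule genes at 6554 UPM and late genes at 1797 UPM.

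**Figure D2:**
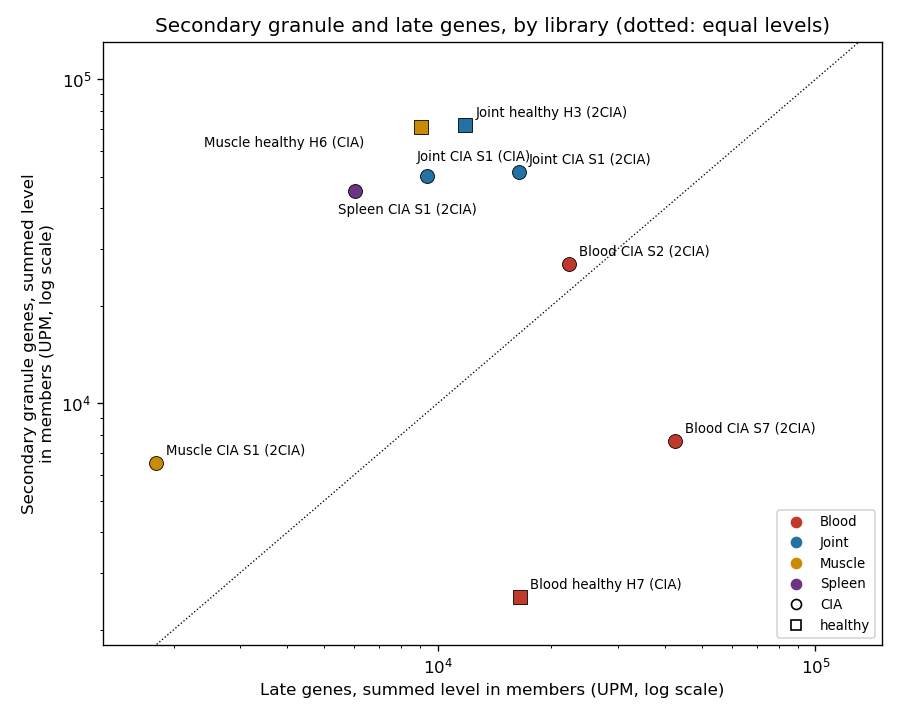
Summed level of 13 secondary granule genes (vertical, UPM, log scale) against 16 late genes (horizontal, UPM, log scale) in the members of each of 9 libraries, by organ (colour) and state (circle for CIA, square for healthy). Blood S7 and H7 lie below the line of equal levels, blood S2 lies just above it with a ratio of 1.21, and the joint, spleen and muscle libraries lie above it with ratios from 3.15 to 7.88.

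Individual granule genes varied within blood as well. Camp, the precursor of the antimicrobial peptide CRAMP, stood at 5965 UPM in blood S2, 0 in S7 and 455 UPM in H7, against 14586 and 16812 UPM in joint S1, 28963 UPM in joint H3, 25859 UPM in muscle H6 and 18142 UPM in spleen S1.
Ngp stood at 7934, 513 and 478 UPM in blood S2, S7 and H7, and at 15287, 16723, 23154, 26540 and 12030 UPM in the same 5 other libraries. Ltf was listed at 0 in blood S7 and H7, stood at 2491 UPM in blood S2 and lay between 2153 and 4656 UPM in those 5.
Blood S2 thus lay between the other blood libraries and the organs for Camp and Ngp, and its Ltf level lay inside the range of the organs. Cd177, a surface protein stored in secondary granules, followed Ltf in being listed at 0 in blood S7 and H7 (346 UPM in S2, and 252 to 692 UPM in the 5 libraries).
Primary granule genes (Elane for neutrophil elastase, Prtn3 for proteinase 3, Mpo for myeloperoxidase, Ctsg and Ms4a3) were listed at 0 in the members of all 3 blood libraries and of muscle S1. They summed to 409 UPM in joint H3, 425 UPM in spleen S1, 506 and 801 UPM in joint S1 and 1258 UPM in muscle H6. In the other columns of these libraries they summed to 510, 615, 1013, 575 and 440 UPM, in the same order. Members thus lay above the other columns only in the smaller S1 joint library and in muscle H6. Elane was the highest of these genes in the muscle H6 members, at 511 UPM. Thus primary granule signal was low beside that of the secondary granule genes in every library.

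Some genes of mature neutrophils were higher in blood than in joint. Il1b, which encodes the cytokine interleukin 1β, stood at 1278 UPM in blood S2, 3125 UPM in S7 and 2679 UPM in H7. In the joint it stood at 194 UPM and 0 in the S1 libraries and at 90 UPM in H3. It was listed at 0 in both muscle libraries and stood at 89 UPM in spleen S1.
Blood and joint did not overlap for Il1b. Cxcr2, the receptor that draws neutrophils towards CXC chemokines, stood at 623, 1864 and 751 UPM in blood S2, S7 and H7, at 266 UPM in the larger S1 joint library and at 98 UPM in spleen S1, and it was listed at 0 elsewhere. Wfdc17, a small secreted protein of activated myeloid cells, was highest in blood S7 and S2, at 15699 and 9302 UPM.
Other late genes did not follow this order. Retnlg stood at 4902, 8461 and 2375 UPM in blood S2, S7 and H7 and at 7085, 2669 and 5357 UPM in the joint, so the organs overlapped. Srgn, the proteoglycan that packs granule contents, stood at 1609 to 4498 UPM in blood and 2280 to 3024 UPM in joint.

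**Figure D3:**
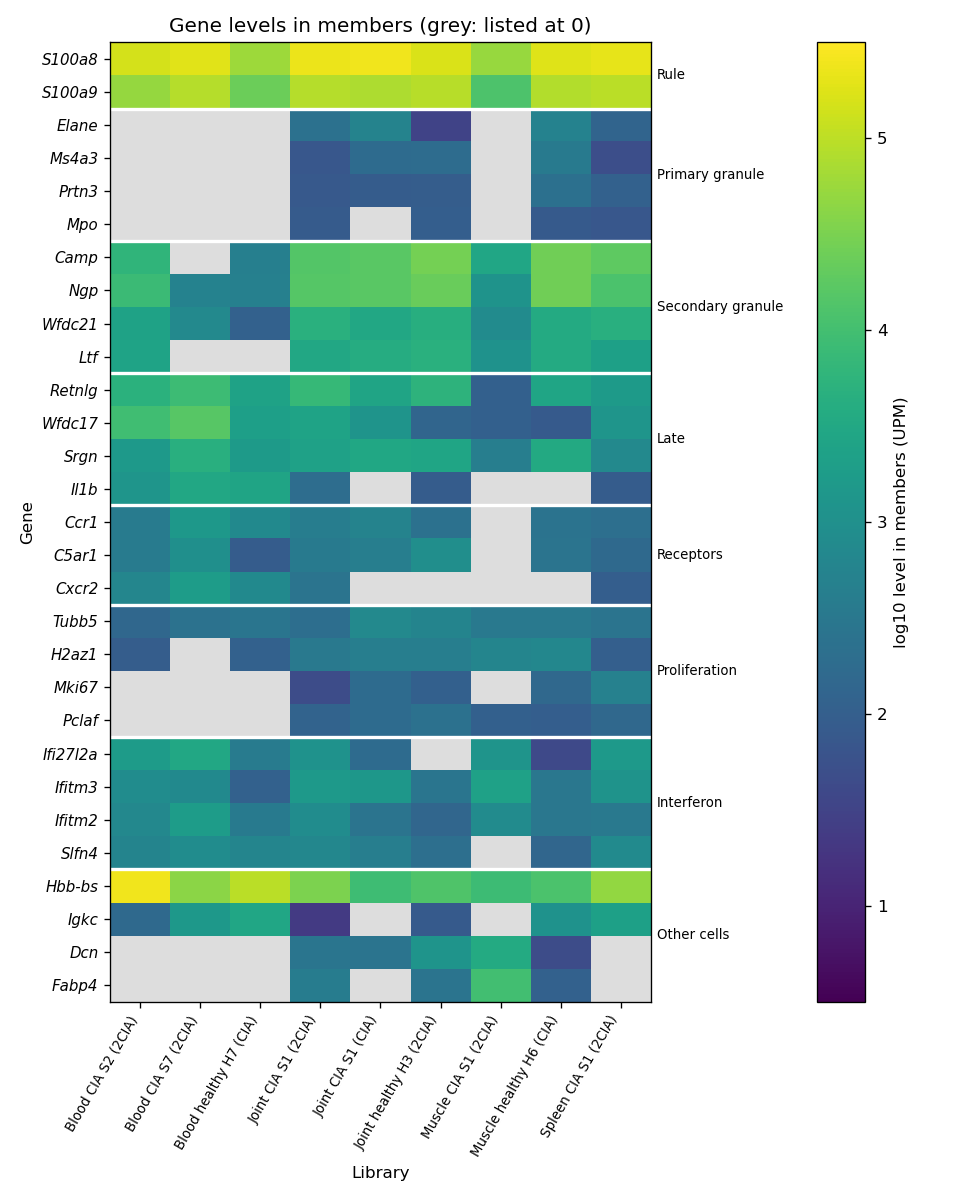
Level of 29 genes in the members of 9 libraries, as the log10 of UPM (colour), with genes grouped by role and grey where a gene is listed at 0. Elane, Ms4a3, Prtn3 and Mpo are grey in all blood libraries, and Il1b and Cxcr2 are brightest in blood.

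The members of joint and blood were compared gene by gene in mice with at least 10 members (joint S1 and H3 against blood S2, S7 and H7). The values were UPM rescaled by a trimmed mean of log ratios, taken as log2(value + 10), and tested with limma across 4143 genes. This asked how neutrophil-rich columns of the inflamed organ differ from circulating ones, but 1 of the 2 joints was healthy. With 2 mice against 3, limma called 0 genes at a Benjamini-Hochberg adjusted p under 0.05 (0% of genes tested), while 416 genes had an unadjusted p under 0.05, 380 higher in joint (9.17% of genes tested) and 36 lower (0.869%). The median difference over all genes was 0.62 on the log2 scale, and with scaling by the plain total it was 0.13, so differences are best read against that shift.
All 13 secondary granule genes had a positive difference, with a median of 2.79, and 8 of them had an unadjusted p under 0.05. The log2 difference was 4.45 ± 1.39 (SE) for Ngp, 2.79 ± 0.87 for Lcn2, 6.40 ± 2.20 for Camp and 5.66 ± 1.28 for Chil3, a chitinase-like protein, each with an adjusted p of 0.398 (limma).
Of 16 late genes, 8 were positive and 8 negative, with a median of -0.08. Il1b had a difference of -3.43 ± 0.76 (adjusted p = 0.398, limma) and Cxcr2 -3.60 ± 1.42 (adjusted p = 0.428). Leaving out 1 mouse moved the difference of Cxcr2 between -6.56 and -0.79 and that of Camp between 3.89 and 8.94. Retnlg stood at 0.96 ± 0.78 (adjusted p = 0.740).
None of these genes passed the test, and its result depended on the scaling. With scaling by the plain total limma called 22 genes, 9 higher in joint and 13 lower. Camp (6.09), Ltf (5.95), Ngp (3.90) and Chil3 (5.47) were among the higher, and Il1b (-3.98), Cxcr2 (-4.23) and Wfdc17 (-3.51) among the lower. Sparc and Dcn, a matrix glycoprotein and a proteoglycan of fibroblasts, had the smallest p (0.000372 and 0.000472, adjusted p = 0.398 for both). Both were listed at 0 in all blood members, so they passed the filter only through the joint and their direction was fixed. Sparc stood at 1005 and 534 UPM in the S1 joint libraries and 522 UPM in joint H3, and Dcn at 274, 267 and 1206 UPM.

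The same comparison was made by levels alone, counting genes for which both joints lay at least 2-fold above or below all 3 blood mice on the log2(UPM + 10) scale. Of the 3973 genes whose mean reached 25 UPM, 6.39% were higher in joint by this measure and 2.04% were lower. Secondary granule genes were higher for 3 of 13 (Camp, Lcn2 and Chil3) and lower for 0. Primary granule genes were listed at 0 in all blood members and could pass the filter only through the joint, so no count is given for them.
Late genes were lower for 4 of 16 (Cxcr2, Il1b and the chemokine gene Ccl6 among them), and 0 were higher. Among 13 measured genes for adhesion and chemotaxis receptors, 3 were lower (Cxcr2 among them) and 0 were higher. Cxcr2 belongs to both lists.
Proliferation and fibroblast genes met the same limit. Mki67, Top2a, Pclaf and Rrm2 were listed at 0 in all 3 blood mice and stood at 42.1 to 278 UPM in the 2 joint mice. Tubb5, a tubulin gene with the highest mean of the list, overlapped, at 150, 242 and 273 UPM in blood S2, S7 and H7 and at 223 and 559 UPM in joint S1 and H3. H2az1, a histone variant, stood at 94.0, 0 and 114 UPM in blood S2, S7 and H7 and at 340 and 435 UPM in joint S1 and H3. Among 18 interferon-stimulated genes, 12 passed the filter and 3 of them (Ifit3, Isg15 and Rsad2) were lower in joint.

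Proliferation genes stood at 242 to 486 UPM in blood members, 990 to 2224 UPM in joint, 1858 UPM in muscle H6 and 1879 UPM in spleen S1. Mki67, a marker of cycling cells, was listed at 0 in blood and muscle S1, stood at 47 to 178 UPM in joint and muscle H6 and reached 506 UPM in spleen S1.
In spleen S1, 58 of 62 member profiles had Mki67 above 0, against 34 of 118 in the larger S1 joint library and 15 of 31 in muscle H6. Spleen and joint of the same mouse S1 also differed in late genes. Of 16 late genes, 8 were at least 2-fold lower in spleen S1 than in joint S1 (Retnlg, Cxcr2, Fpr1, Mxd1, Msrb1, Srgn, Slpi and Stfa2l1) and 0 were higher, where 15.6% of 4149 genes were lower and 24.8% higher. For proliferation genes 6 of 14 were higher and 1 was lower. The 5 measured genes of the stefin A family, cysteine protease inhibitors, were lower in spleen, of which Stfa2 was listed at 0 there and could only come out lower. This is 1 mouse, and the difference has no replicate check. B cell markers in these members stood at 4751 UPM in spleen S1 and 72 UPM in the larger joint library, and the other columns of spleen S1 had a higher level of proliferation genes (3525 UPM) than its members.

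Members within 1 library were not uniform. In the larger S1 joint library, secondary granule genes ran from 4239 to 104014 UPM over 118 profiles (median 56654) and late genes from 3551 to 61940 UPM (median 12369). Late genes exceeded secondary granule genes in 14 of its profiles, which held 47 of 265 members. In the other libraries this held for 13 of 16 profiles in blood S2, 4 of 4 in blood S7, 3 of 3 in blood H7, 2 of 31 in muscle H6, 2 of 62 in spleen S1 and 0 profiles of joint H3, muscle S1 and the smaller S1 joint library.
Thus a minority of the CIA joint members had late genes above secondary granule genes, the order found in most blood profiles. Some of these were low for both lists, down to 5614 UPM for late and 4239 UPM for secondary granule genes. Blood S2 in turn held 3 profiles with secondary granule genes above late genes, up to 54486 UPM, which held 14 of its 40 members.
Camp ran from 382 to 13102 UPM over the profiles of blood S2, with a median of 495 UPM. Primary granule genes were above 0 in 45 of 118 profiles of the larger S1 joint library, 27 of 31 of muscle H6 and 41 of 62 of spleen S1, and reached 7253 UPM in muscle H6.
Over the profiles of a library, the level of secondary granule genes went with the share of S100a8 plus S100a9. Pearson's r was 0.86 in blood S2 (16 profiles), 0.76 in the larger S1 joint library (118), 0.98 in muscle H6 (31) and 0.97 in spleen S1 (62). Profiles of a library share neighbour columns, RNA of other cells and the total they are divided by, so these values are a description. Between secondary granule and late genes Pearson's r was negative in these 4 libraries, while Spearman's rho was positive in blood S2. Pearson's r was -0.11 and Spearman's rho 0.54 in blood S2, and they were -0.29 and -0.14 in the larger S1 joint library, -0.26 and -0.47 in muscle H6, and -0.14 and -0.34 in spleen S1.

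**Figure D4:**
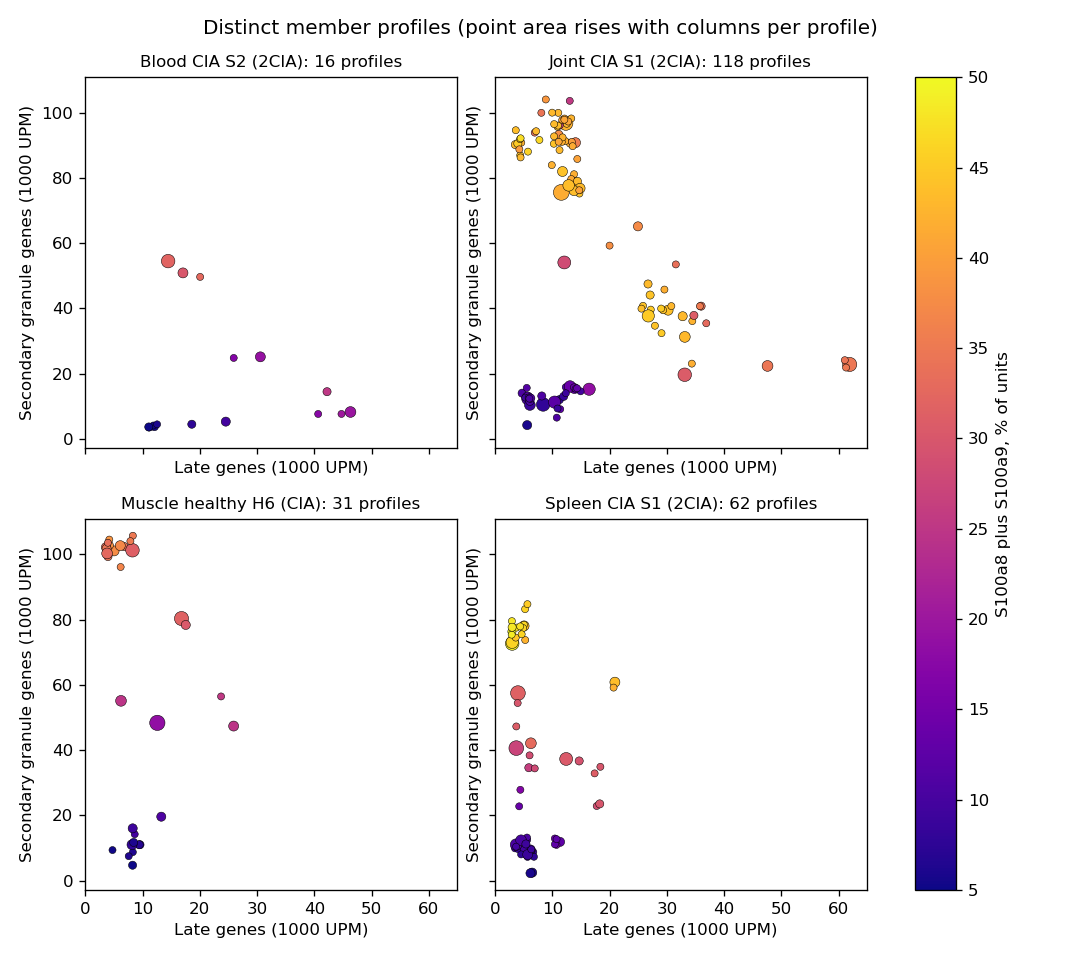
Secondary granule against late genes (both in 1000 UPM) for each distinct member profile of blood S2, the larger joint library of S1, muscle H6 and spleen S1. Point area rises with the number of columns that share the profile, and colour gives S100a8 plus S100a9 in percent of units. The larger S1 joint library spans secondary granule levels from 4239 to 104014 UPM. Its 14 profiles with late above secondary granule genes run from 5614 to 61940 UPM in late genes, from the lower left to the lower right.

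CIA and healthy mice were compared over the organs with at least 10 members in both states (blood S2 and S7 against H7, joint S1 against H3, muscle S1 against H6), with organ as a covariate. Mouse S1 gave both the joint and the muscle unit, so the 4 CIA units came from 3 mice. Over 4423 genes, limma called 0 genes at an adjusted p under 0.05 (0% of genes tested), and 80 had an unadjusted p under 0.05, 39 higher in CIA (0.882%) and 41 lower (0.927%). The median difference over all genes was -0.15.
The smallest p belonged to Ifi27l2a, an interferon-inducible gene of the mitochondrial membrane. It stood at 1746 and 3170 UPM in CIA blood S2 and S7 against 379 UPM in H7, and at 1143 and 178 UPM in the S1 joint libraries against 0 in H3. In muscle it stood at 1249 UPM in S1 against 40 UPM in H6. It was higher in CIA in every organ compared, with a log2 difference of 4.50 ± 1.07 (SE) and an adjusted p of 0.125 (limma, 4 units against 3). Leaving out joint H3 gave 3.14 (adjusted p = 0.774, limma), the lowest value without 1 mouse. Leaving out blood H7, which drops organ from the fit and adds spleen S1, made it the 1 gene called, at 6.06 with an adjusted p of 1.98e-05 (limma). That fit set 5 CIA units against 2 healthy units, joint H3 and muscle H6. Joint, muscle and spleen of S1 entered it as separate units, so that p-value is too small. Organ and state cannot be told apart in it.
The next smallest p belonged to Igkc, the antibody kappa constant region, a B cell gene, with a difference of -3.36 ± 1.119 (adjusted p = 0.999, limma). Leaving out 1 mouse moved this difference between -4.50 and -0.56, and other alternatives turned it, up to 0.30. Igkc stood at 2922 UPM in blood H7 against 160 and 1464 UPM in S2 and S7, at 1099 UPM in muscle H6 against 0 in S1, and at 84 UPM in joint H3 against 22 UPM and 0 in S1. B cell markers as a list had a median of -2.40 over 8 genes.

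Interferon-stimulated genes stood higher in CIA members in each organ compared. Of 18 listed genes, 14 passed the filter on low values. Of these 13 had a positive difference, with a median of 2.06, against 1983 of 4423 and a median of -0.15 for all genes, a description only, since a gene high in 1 state passes the filter more readily. None passed the test (0 of 14), and 4 had an unadjusted p under 0.05 with a positive difference, where 0.882% of all genes did.
Ifitm3, which blocks virus entry, had a log2 difference of 2.70 ± 1.05 (adjusted p = 0.999, limma). It stood at 851 and 747 UPM in blood S2 and S7 against 114 UPM in H7, at 1598 and 1423 UPM in joint S1 against 275 UPM in H3, and at 2307 UPM in muscle S1 against 306 UPM in H6. The states did not overlap in any of these organs. Isg15, a ubiquitin-like modifier induced by interferon, had a difference of 2.05 ± 1.14 (adjusted p = 0.999, limma), which was 1.06 without joint H3 and 3.57 without blood H7. In blood it overlapped, at 437 and 694 UPM in CIA against 471 UPM in H7.
Summed over the list, members stood at 5932 and 9503 UPM in blood S2 and S7 against 3362 UPM in H7, at 4998 and 2402 UPM in joint S1 against 623 UPM in H3, and at 6968 UPM in muscle S1 against 944 UPM in H6. Spleen S1 stood at 4945 UPM. In the joint only 10 of the 18 genes passed the filter. Of these, Ifi27l2a, Ifit1, Isg15, Rsad2, Irf7, Ifitm1 and Zbp1 were listed at 0 in H3 and could only come out higher in S1, at 55.8 to 1100 UPM. The other 3, Ifitm2, Ifitm3 and Slfn4, stood at 842, 1590 and 652 UPM in S1, both libraries added up, and at 139, 275 and 209 UPM in H3. In blood 13 passed the filter, and 5 were higher in both CIA mice (Ifitm1, Ifitm2, Ifitm3, Ifi27l2a and Oasl2) and 1 was lower (Bst2), where 11.6% of 4158 genes were higher and 41.7% lower. Oasl2 was listed at 0 in H7 and Bst2 in both CIA mice, so the direction of each was fixed by the filter. In muscle 12 passed the filter, 11 were higher and 1 was lower, but there 55.9% of 4608 genes were higher and 26.0% lower. Of the 11, Ifit2, Ifit3, Rsad2 and Zbp1 were listed at 0 in H6 and could only come out higher, as Slfn4, listed at 0 in S1, could only come out lower.
The other columns of the same libraries showed the same order. They stood at 5486 and 1967 UPM in blood S2 and S7 against 829.4 UPM in H7, at 3848 and 3844 UPM in joint S1 against 1765 UPM in H3, and at 4580 UPM in muscle S1 against 1081 UPM in H6. The difference is thus not shown to be particular to the members. The muscle S1 members carried endothelial markers, and the healthy blood H7 and muscle H6 libraries had the suffix CIA where the CIA mice had 2CIA, so suffix and state cannot be told apart there. Joint H3 and the larger S1 joint library shared the suffix 2CIA.

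**Figure D5:**
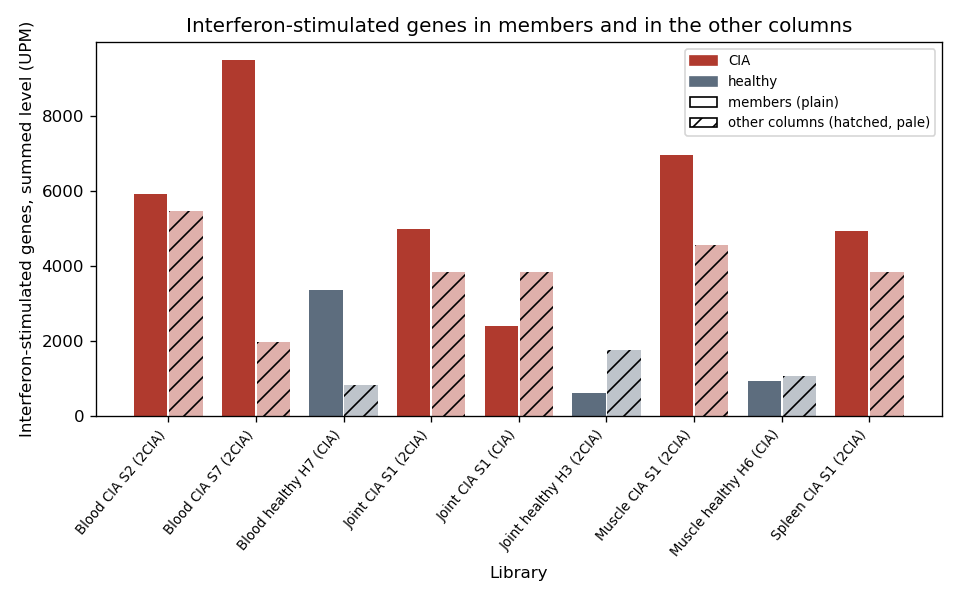
Summed level of 18 interferon-stimulated genes (UPM) in members (plain bars) and in the other columns (hatched bars) of 9 libraries, red for CIA and grey for healthy mice. Members of joint H3 (623 UPM) and muscle H6 (944 UPM) lie lowest, and those of blood S7 (9503 UPM) highest.

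The maturity lists did not move in 1 direction with disease. In blood, secondary granule genes were higher in both CIA mice than in H7, with 6 of 13 genes at least 2-fold higher (Lcn2, Ifitm6, Pglyrp1, Anxa1, Mmp8 and Wfdc21) and 0 lower, where 11.6% of all genes were higher and 41.7% lower. Mmp8 was listed at 0 in H7 and could only come out higher. The 5 members of healthy blood H4, too few to enter the comparison, had secondary granule genes at 13259 UPM. That was above S7 (7646 UPM) and below S2 (26931 UPM), so CIA and healthy blood overlapped once H4 was included. In the same comparison 7 of 8 B cell markers were at least 2-fold lower in CIA, and in the H7 members these markers (6337 UPM) exceeded the 14 defining neutrophil genes (4971 UPM). Their part in the difference was not tested. In the joint 2 were higher (Ifitm6 and Orm1) and 1 was lower (Chil3) in S1, where 14.8% of 3859 genes were higher and 36.5% lower. Orm1 was listed at 0 in H3, so it too could only come out higher. The limma median over the list was -0.49, with 5 genes positive and 8 negative. Camp had a difference of -1.45 ± 1.00 and Ngp of -0.69 ± 1.00 (adjusted p = 0.999 for both, limma). Neither direction was stable, since leaving out 1 mouse moved Camp between -4.62 and 0.030 and Ngp between -2.71 and 1.51.
Late genes in the joint were at least 2-fold higher in S1 for 5 of 16 (Csf3r, Cxcr2, Mmp9, Wfdc17 and Stfa2l1) and 0 were lower, against the same 14.8% and 36.5% of all genes. All of these but Wfdc17 were listed at 0 in H3 and could only come out higher, so the count says nothing beyond Wfdc17. In blood 4 were higher in both CIA mice (Retnlg, Fpr1, Wfdc17 and Stfa2l1) and 0 were lower, against 11.6% and 41.7% of all genes. Of these, Stfa2l1 was listed at 0 in H7.
Wfdc17 stood at 2515 and 1245 UPM in the S1 joint libraries and 133 UPM in joint H3, and at 9302 and 15699 UPM in blood S2 and S7 and 2110 UPM in H7. In muscle it stood at 106 UPM in S1 and 81 UPM in H6. Its limma difference was 2.40 ± 1.02 (adjusted p = 0.999). It was the 1 gene called without mouse S1 (5.21, adjusted p = 0.0191, limma), a fit of CIA blood against healthy blood, joint and muscle with no organ term. Without the 2 units whose members had the lowest S100a8 plus S100a9 share, blood H7 and muscle S1, and with no organ term, limma called 9 genes. Wfdc17 (5.44) and Ifi27l2a (6.26) were among the 7 higher in CIA, and Camp (-3.44) was among the 2 lower. That fit compares blood, joint and spleen of CIA mice with healthy joint and muscle alone, so organ and state cannot be told apart in it. Its units were also chosen by S100a8 plus S100a9, the genes of the rule. Secondary granule genes went with that share within libraries, so these calls are a description and no support.
In the joint, the 5 genes with the largest ratio of S1 to H3 were Ifi27l2a, H2-Q4 (a class I histocompatibility gene), Stfa2l1, Cstdc4 and Stfa1, all listed at 0 in H3 and at 255 to 1100 UPM in S1 with both libraries added up. The 5 with the smallest ratio were 1600020E01Rik, Gm11857, Vgll4, Pwwp2a and Gm12020, at 130 to 220 UPM in H3 and at most 1.77 UPM in S1. In the joint, stefin A genes stood at 1052 UPM in the larger S1 library, 89 UPM in the smaller one and 0 in H3. Keratinocyte markers such as Krt5 and Krt14 stood at 332 UPM in joint S1, both libraries added up, and at 0 in H3. In spleen S1 they stood at 12.4 UPM. Their part in the difference was not tested. The 2 joint libraries of S1 stood at 990 and 2224 UPM for proliferation genes and joint H3 at 2012 UPM. The smaller S1 library, with 1 member profile, was thus as high as the healthy joint.

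Further lists of neutrophil state are given as levels. Genes of inflammatory activation summed to 2669 to 8876 UPM across the 9 libraries. Cxcl2, a chemokine that recruits neutrophils, stood at 2730 and 445 UPM in joint S1 and 1583 UPM in joint H3. The joint libraries of the states overlapped only through the 1 profile of the smaller S1 library. Cd14, the co-receptor for lipopolysaccharide, stood at 1879 UPM in blood S7, 1992 UPM in joint H3 and 215 UPM in spleen S1. Il1a was listed at 0 in the members of all 9 libraries.
The 6 subunit genes of the NADPH oxidase, which makes the oxidative burst, summed to 1170 to 2973 UPM except in muscle S1, at 211 UPM. In the joint and blood they were all tested and all had a positive difference (joint above blood, median 1.66), none past the threshold, where 2743 of 4143 genes were positive with a median of 0.62. By levels 0 of 6 were at least 2-fold higher in both joints, and the smaller S1 joint library (1779 UPM, 1 profile) lay below blood S2 (1990 UPM). Immediate early and stress genes stood at 4735 to 12051 UPM and reached 18750 UPM in muscle S1, with Jun at 3854 UPM there and at 1693 UPM or less elsewhere. Among transcription factors, Cebpe, which drives secondary granule genes, was listed at 0 in blood S7 and H7 and muscle S1, stood at 36 UPM in blood S2 and lay between 70 and 342 UPM in joint, spleen and muscle H6.

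In 4 libraries the rule found under 10 members, given here as values only. The 5 members of blood H4 had secondary granule genes at 13259 UPM, late genes at 17718 UPM and Il1b at 2848 UPM. The 7 members of lung S1 had 12356 and 17642 UPM, with Il1b at 41 UPM and Cxcr2 at 0. The 9 members of spleen H6 had 12844 and 5156 UPM, and the 5 of lymph node S1 had 4062 and 3745 UPM with Camp and Ltf listed at 0. Blood H4, like blood S7 and H7 and unlike blood S2, held more late than secondary granule signal.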

How the data were processed

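The authors aligned reads with STAR to GRCm38, used the Drop-seq tools for UMI counting, removed cells with few reads, transcripts or genes, and smoothed the values over nearest neighbours (knn). The deposited values are a whole-number signal, not counts, so no count model was used. Of 23013 gene rows, 21404 were given a symbol by Entrez number from the RefSeq table of GRCm38.p6. Members and gene lists were chosen with earlier results of these data known. A mouse was the replicate, with both joint libraries of S1 summed. Replicates are separate mice, and units of S1 share a mouse. UPM of genes with a mean of at least 25 were scaled by an unweighted trimmed mean of log ratios (30% and 5% trimmed), taken as log2(value + 10), which understates changes of low genes, and fitted with limma 3.58.1 in R 4.3.3 (trend, two-sided, Benjamini-Hochberg). Fits were tested on simulated data. Doublets were not called. Share intervals were not computed, because smoothed columns are not independent cells.

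Named genes were up to 4 per list with the highest mean level, the 2 smallest p of a fit without calls, for joint and muscle the 5 per direction with the largest ratio between the states (0.5 units added, at least 50 units), and the 10 leading genes of members. List genes past 2-fold, and genes named beside a called alternative, were added after their values were seen. Alternatives covered the threshold, scaling, pseudocount, filter, duplicate profiles, suffix, block and left-out mice. A gene of the late and receptor lists is not reported here.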

Additional observations from a re-analysis of the deposited data

Results flagged for a closer look

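The summed level of secondary granule genes was higher in CIA blood than in healthy H7 and lower in CIA joint and muscle. This difference was not tested. Gene by gene in the joint, 2 of 13 were at least 2-fold higher and 1 was lower, where 14.8% and 36.5% of all genes were. On the log2 scale the members of CIA blood stood 3.42 (S2) and 1.60 (S7) above those of healthy H7, while CIA joint stood at -0.48 and CIA muscle at -3.44 against their healthy counterparts. Late genes stood at 0.43 (S2) and 1.37 (S7) in blood and 0.45 in joint, but at -2.33 in muscle. For secondary granule genes, healthy blood H4, with 5 members, stood at 13259 UPM. That was above S7 (7646 UPM), so the direction of S7 rests on H7. The muscle S1 members had S100a8 plus S100a9 at 6.61% of units and endothelial markers at 11446 UPM, and the blood H7 members had 8.22% and B cell markers at 6337 UPM. The part of these cells in the differences was not tested.

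Members also occurred in 2 CIA libraries that entered no comparison, whereas the healthy libraries of the same organs held 0. They made up 3.85% of the columns of lung S1 and 1.10% of those of lymph node S1. The lymph nodes of the other CIA mice also held 0, with 0 of 272 columns in S2 and 0 of 642 in S7.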

How the results depend on the processing

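The rule gave 803 members at 2.5% and 521 at 10%, and 254 when each distinct profile was counted once, against 656. The joint-minus-blood difference of secondary granule genes and the joint difference of interferon genes kept their direction and moved by less than the spread between libraries in all 5 alternatives. That of late genes moved to -1.51 without S100a8, S100a9 and haemoglobin genes in the total, and kept its direction in the others.

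For CIA against healthy, with 0 calls, limma called 1 gene with plain-total scaling, 1 with median-of-ratios scaling, 1 without the organ term and with spleen S1 added (5 units against 3), and 8 at the 10% threshold (organ dropped). It called 9 without blood H7 and muscle S1. Leaving out 1 mouse gave 0 to 1 calls, the 1 arising without blood H7 and without S1 (all of its organs). The planned mouse block with organ could not be fitted. With mouse as replicate block and no organ covariate, again with spleen S1, limma called 1 gene. A fit on the suffix 2CIA alone was not run, because it holds 1 healthy unit. For joint against blood, limma called 22 genes with plain-total scaling and 2 at the 2.5% threshold. Leaving out 1 mouse gave 0 to 154 calls, 154 without joint H3 and 114 without joint S1. There a lone joint mouse was assumed to vary like the blood mice. No paired analysis was possible because each mouse gave 1 unit to that fit. The cause of these shifts was not tested.

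Some genes turned their direction between CIA and healthy. Igkc stood at 0.30 at 10% and 0.21 without blood H7 and muscle S1. Camp ranged from -4.62 to 0.030 when 1 mouse was left out, the latter without blood S7. Ngp ranged from -2.71 to 1.51, the latter without muscle H6 and also without both muscle units. Ltf, at 0.96, reached 2.61 without muscle H6 and stood at -2.30 at 10%, -2.37 without blood H7, -1.65 without S1, -0.80 without blood S2 and -2.32 without blood H7 and muscle S1. Between joint and blood, Mmp8, at 1.76, stood at -0.51 at 10%, -0.46 with the suffix 2CIA alone and -0.49 without blood H7, and reached 3.15 without blood S2. Leaving out 1 mouse also moved Cxcr2 from -6.56 to -0.79, Camp from 3.89 to 8.94 and Wfdc17 from -5.45 to -0.35 in that fit, with no change of direction. Smoothing hides the depth behind each value, so low genes at 0 limit all comparisons.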
